A study of Mus musculus with 12 samples.

Results

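The genes described here are 5 members of the SLAM (signaling lymphocytic activation molecule) family: *Slamf1* (CD150), *Cd48* (CD48), *Ly9* (CD229), *Cd84* (CD84), and *Slamf7* (CD319). Some of their proteins are used as surface markers of hematopoietic stem and progenitor cells. The genes were found by symbol through the Ensembl identifiers of a table of raw RNA-seq counts, and all 5 were among its 46078 genes. The 12 libraries came from C57BL/6 mouse bone marrow cells infected with a lentivirus that expresses GFP together with an shRNA against luciferase (shLuci, the control) or against *Rad21* (shRad21), a subunit of the cohesin ring. Hence the control cells had also been infected, sorted for GFP, and, depending on the experiment, cultured or transplanted. There were 3 libraries in each of 4 groups. The shLuci culture and shRad21 culture libraries were made from cells sorted as GFP+CD48-Sca-1+ on day 3 after isolation of LSK (Lineage-Sca-1+Kit+) cells and infection, in serum-free medium with thrombopoietin and stem cell factor by the study's methods. The shLuci in vivo and shRad21 in vivo libraries were made from GFP+ LSK cells sorted from lethally irradiated mice that had received infected LSK cells, at month 3 after transplantation by the sample labels and at a later month by the study's methods. The libraries were prepared with TruSeq RNA v2 in culture and with SMART-Seq v4 and Nextera XT in vivo, and each experiment was sequenced in its own lane, so kit, gate, lane, and setting cannot be told apart. The ages of the mice behind these libraries, the pooling of animals, and the *Rad21* hairpin used are not given in the sources used here. p-values therefore measure the spread between libraries, which may be technical.

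SLAM receptors are immunoglobulin-superfamily proteins, most of which bind another copy of themselves on a neighboring cell. CD48 is an exception, a lipid-anchored protein without a cytoplasmic tail that serves as the ligand of CD244. The other members described here signal through tyrosine motifs in their tails. Depending on the member, these motifs recruit the small adaptors SAP or EAT-2 and Src-family kinases such as Fyn. In mouse bone marrow, CD150 without CD48 marks the cells most enriched for stem cell activity, and CD48, CD244, and CD229 appear on the surface of multipotent and more restricted progenitors.

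All 5 genes lie on chromosome 1 (GRCm38), in a row with *Cd244a* and *Slamf6*. *Slamf1* (ENSMUSG00000015316) spans 171767127 to 171801184 on the plus strand. *Cd48* (ENSMUSG00000015355) spans 171682009 to 171705258 on the plus strand and ends 61.9 kb before *Slamf1* starts. *Ly9* (ENSMUSG00000004707) spans 171588624 to 171607410 on the minus strand and lies within the bounds of *Cd244a* without sharing an exonic base with it. *Cd84* (ENSMUSG00000038147) spans 171839697 to 171890718 on the plus strand and begins 38.5 kb beyond *Slamf1*. *Slamf7* (ENSMUSG00000038179) spans 171632403 to 171653035 on the minus strand, and 9.24% of its exonic bases are shared with *Gm37787* on the opposite strand. The strand setting of the counting is not given in the sources used here, so reads from this stretch of *Slamf7* cannot be assigned to either gene with certainty.

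The sequences upstream of *Slamf1* and *Cd48* are shown because their proteins define the CD150/CD48 sort and their count ratio is given below. Both are plus-strand sequences of GRCm38.p6 from RefSeq and run from 250 to 11 bases before the RefSeq start, *Slamf1* at chr1:171766882-171767121 and *Cd48* at chr1:171681742-171681981. Capitals mark the letters TGTGGT, the core that RUNX factors read.
Slamf1: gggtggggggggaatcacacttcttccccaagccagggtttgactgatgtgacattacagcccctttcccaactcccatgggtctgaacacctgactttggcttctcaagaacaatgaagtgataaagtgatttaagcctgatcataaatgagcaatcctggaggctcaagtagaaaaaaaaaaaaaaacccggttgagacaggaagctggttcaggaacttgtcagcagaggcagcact
Cd48: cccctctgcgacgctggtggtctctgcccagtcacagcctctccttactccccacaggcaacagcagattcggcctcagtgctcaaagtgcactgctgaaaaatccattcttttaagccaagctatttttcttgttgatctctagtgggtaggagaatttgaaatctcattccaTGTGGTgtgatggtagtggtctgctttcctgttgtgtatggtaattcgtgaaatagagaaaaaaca

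The match upstream of *Cd48* lies from -76 to -71 relative to the start. The search covered both strands of windows from 250 bases before to 50 bases after the start, for the ETS letters GAGGAA, the RUNX letters TGTGGT, the STAT letters TTCNNNGAA, the letters AGATAA of GATA factors, and the kappaB consensus. None of these exact letters occurred in the *Slamf1* or *Slamf7* window. For ETS, RUNX, and GATA factors a single fixed spelling was searched, so sites with other spellings were not covered. The printed *Slamf1* sequence holds, for example, the near spellings CAGGAA and TGATAA. *Cd84* held 1 RUNX and 1 ETS match, and *Ly9* had no entry in the promoter table. Of all 32851 windows, 16.8% held the RUNX letters and 28.3% the ETS letters, so these matches are common and are given only as a description of the sequence.

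Between 15235129 and 29846689 reads per library were assigned to genes. Counts were scaled with the TMM method of edgeR and are given as CPM (counts per 1000000 of the scaled library total). A floor of 3 counts amounted to 0.107 to 0.211 CPM per library on this scale, which covers counting error only. *Rad21* fell in both experiments, by 1.52 on the log2 scale in culture and by 1.43 in vivo, and each shRad21 library was below each shLuci library of its experiment. *Kit* and *Ly6a*, the genes of Kit and Sca-1 in the LSK gate, were detected in all groups. So were *Cd34* and *Ptprc*, which are not part of this gate. These 4 genes summed to between 1958 and 2959 CPM per library. *Kit*, which the sort of the culture cells did not use, had means of 741 CPM in shLuci and 276 CPM in shRad21 culture. In vivo, its means were 912 and 672 CPM. All 5 SLAM members passed the filter on low counts in every comparison.

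Levels were first compared between members per length (FPKM, CPM divided by the length of the annotated exons in kb). *Cd48* had the highest level in each group, also in culture, where the cells had been sorted as negative for the CD48 protein. In shLuci cells in culture, the order was *Cd48* (30.2 FPKM ± 6.34, SD, n = 3), *Cd84* (9.32 ± 0.792), *Ly9* (5.45 ± 0.280), *Slamf1* (2.22 ± 0.440), and *Slamf7* (0.199 ± 0.0663). No neighbors in this order overlapped between libraries. In shRad21 cells in culture, *Slamf1* reached 5.14 FPKM ± 0.882 (SD, n = 3) and overlapped with *Ly9* at 6.05 ± 1.49.

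In shLuci cells in vivo, *Cd48* was at 221 FPKM ± 29.6 (SD, n = 3), above 99.3% of the genes tested. *Ly9* followed with 16.2 FPKM ± 0.254, ahead of *Cd84* with 13.3 ± 0.169, *Slamf1* with 1.83 ± 0.111, and *Slamf7* with 0.960 ± 0.373. In shRad21 cells in vivo, *Slamf1* reached 7.48 FPKM ± 0.851 (SD, n = 3) and stayed below *Cd84* at 14.9 ± 0.899. *Ly9* and *Cd84* no longer separated in these libraries. The per-length order was thus the same in both groups of each experiment, with *Cd84* above *Ly9* in culture and below it in vivo.

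**Figure D1:**
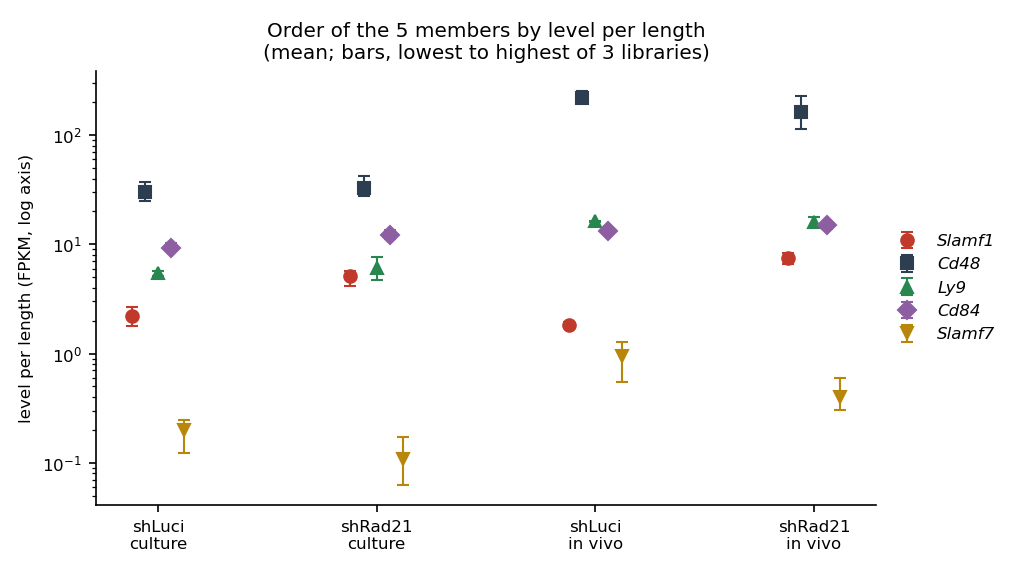
Level per length of the 5 members in the 4 groups, as FPKM on a log axis, with the mean and the lowest and highest of 3 libraries. *Cd48* is highest in each group, and *Slamf1* moves up toward *Ly9* and *Cd84* in both shRad21 groups.

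*Slamf1*, the gene for the stem cell marker CD150, rose upon *Rad21* knockdown in both experiments. In culture, its normalized expression was 11.0, 16.4, and 13.5 CPM in the shLuci libraries and 25.4, 34.2, and 35.3 CPM in the shRad21 libraries. In vivo, it was 11.0, 10.7, and 12.0 CPM in the shLuci libraries and 51.3, 46.0, and 40.9 CPM in the shRad21 libraries. Each shRad21 library was above each shLuci library in both experiments, and the lowest shRad21 library in culture was above the highest control library of either experiment. The log2 fold change in culture was 1.21 (2.32-fold), with a standard error (SE) of 0.165 and an adjusted p of 8.03e-04 in the quasi-likelihood test of edgeR, adjusted by Benjamini-Hochberg over all genes tested. In vivo it was 2.05 (4.13-fold, SE 0.119, adjusted p = 2.18e-05 from the same edgeR test), the 11th smallest p of 15938 genes. Of all genes tested, 14.2% passed this threshold in culture and 11.0% in vivo, and the groups did not overlap for 31.5% and 29.1% of genes, respectively.

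The rise of *Slamf1* was called under each of 14 alternatives in culture and each of 14 in vivo, which include the omission of each library. The difference between both effects, culture minus in vivo, was -0.83 on the log2 scale (SE 0.216, adjusted p = 0.0414 from edgeR's test of the interaction), a call made for 4.67% of genes. It lost significance upon omission of any of 9 of the 12 libraries, with adjusted p-values up to 0.124 without shLuci culture replicate 2, and therefore depended on single libraries. In bulk libraries, more cells that express a gene and more RNA per cell cannot be told apart. In vivo, the summed level of 6 megakaryocyte and platelet genes, a lineage with which CD150+ stem cells share transcripts, ranged from 68.5 to 87.2 CPM in shLuci and from 204 to 236 CPM in shRad21 cells. The corresponding ranges overlapped in culture (557 to 662 and 490 to 758 CPM), where single genes of this list moved in opposite directions. *Pf4* had means of 338.7 CPM in shLuci and 214.4 CPM in shRad21 culture, and *Ppbp* was lower as well. In contrast, *Itgb3* had means of 237.0 and 391.6 CPM, and *Gp9* and *Gp1bb* were also higher. In vivo, each detected gene of the list had a higher mean in shRad21 cells, with the largest change in *Itgb3* (23.49 and 114.99 CPM). The sum of 7 mast cell and basophil genes was higher in shRad21 libraries in culture (26.3 to 82.4 against 14.0 to 19.6 CPM) and in vivo (141 to 209 against 98.0 to 118 CPM). Most of this sum was *Cpa3*, a mast cell protease, with group means of 10.2 and 42.1 CPM in culture and 62.2 and 131 CPM in vivo. In contrast, *Mcpt8*, a basophil protease, had lower means in shRad21 cells in culture (3.41 against 4.30 CPM) and in vivo (9.33 against 14.6 CPM), as did *Fcer1a* (6.63 against 8.27 CPM) and *Ms4a2* (2.77 against 5.62 CPM) in vivo. The part of these cells in the change of *Slamf1* was not tested.

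*Cd48*, the counterpart of *Slamf1* in the CD150/CD48 sort, did not pass the test for a knockdown effect in either experiment. Both culture groups had been sorted as negative for the CD48 protein, so the culture test covers such cells only. It cannot show a change in the share of CD48-positive cells. In culture, it was at 44.1, 34.0, and 29.4 CPM in shLuci and at 50.2, 34.9, and 33.1 CPM in shRad21 libraries. The groups overlapped, and the log2 fold change was 0.15 (SE 0.176, adjusted p = 0.658). In vivo, it was at 302, 253, and 233 CPM in shLuci and at 168, 274, and 137 CPM in shRad21 libraries. Replicates 1 and 3 of shRad21 in vivo were below all controls, whereas replicate 2 lay within their range. The log2 fold change in vivo was -0.43 (SE 0.216, adjusted p = 0.269), and without shRad21 in vivo replicate 2 it was -0.77 and was called (adjusted p = 0.00710). The difference between both effects was 0.59 on the log2 scale (SE 0.320, adjusted p = 0.371), and it compares cells with and without the CD48 gate.

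**Figure D2:**
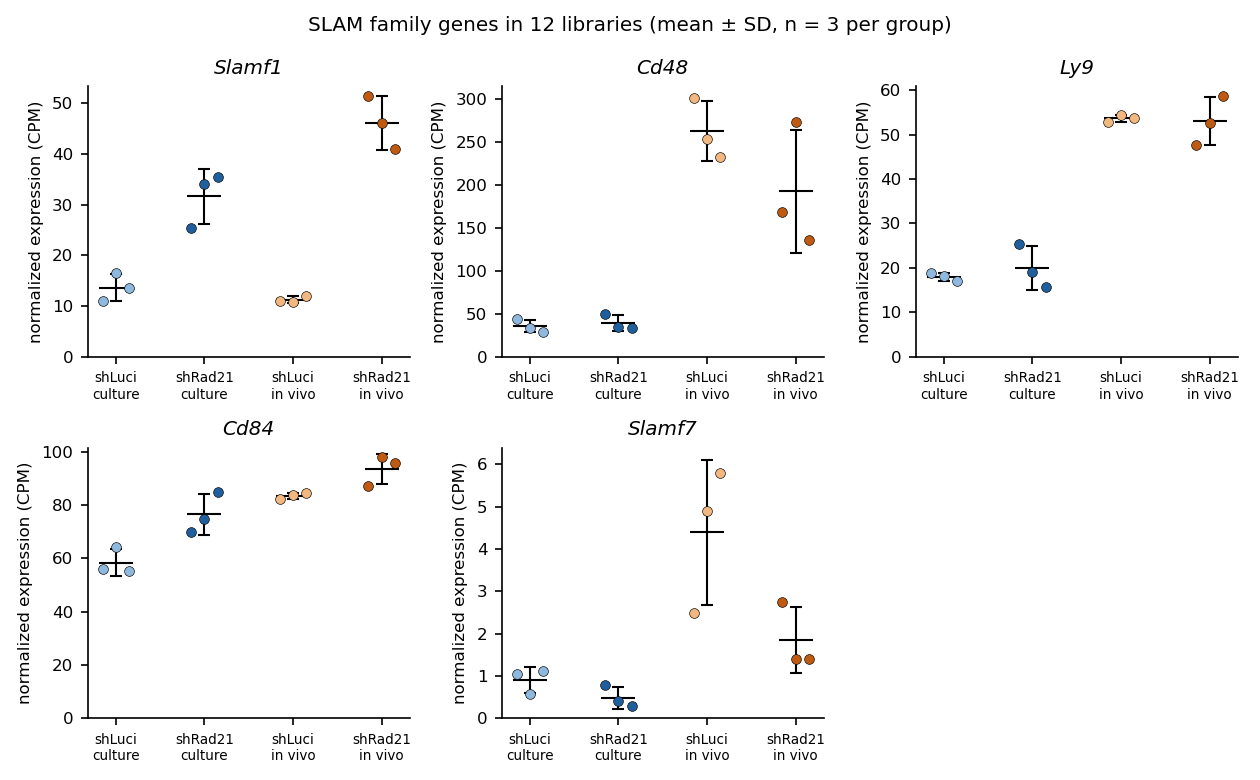
Normalized expression (CPM) of the 5 members in each of the 12 libraries, with points for libraries and the mean ± SD (n = 3) of each group. The shRad21 points of *Slamf1* lie above all shLuci points of the same experiment, whereas *Cd48* and *Ly9* are higher in all in vivo than in all culture libraries.

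The ratio of *Slamf1* to *Cd48* counts within a library does not depend on the scaling between libraries. In culture, the libraries had 0.250, 0.484, and 0.459 *Slamf1* counts per *Cd48* count in shLuci and 0.506, 0.978, and 1.07 in shRad21 cells. In vivo, the values were 0.0365, 0.0425, and 0.0517 in shLuci and 0.305, 0.168, and 0.299 in shRad21 cells. The shRad21 libraries were above the shLuci libraries in both experiments. The mean log2 ratio in culture was -1.39 ± 0.529 (SD, n = 3) in shLuci and -0.31 ± 0.590 in shRad21 cells, a 2.12-fold difference. In vivo it was -4.54 ± 0.252 (SD, n = 3) and -2.01 ± 0.488, a 5.76-fold difference. Both culture groups had been sorted as negative for the CD48 protein, and the in vivo groups had not. The 2 fold differences are therefore not measures of the same kind. Between same-numbered libraries in culture, the log2 ratio was higher in shRad21 cells by 1.02, 1.02, and 1.22. The two-sided exact permutation p without pairing was 0.1 in both experiments, the smallest p that this test allows for 3 against 3 libraries, so this test could not reach 0.05.

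**Figure D3:**
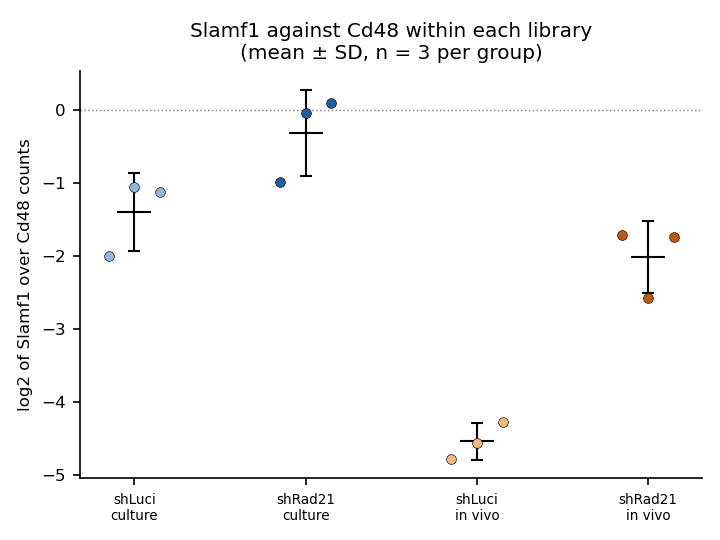
The log2 of *Slamf1* over *Cd48* counts in each library by group, with the mean ± SD (n = 3); 0 on the vertical axis marks equal counts. The shRad21 libraries lie above the shLuci libraries of the same experiment without overlap, and shRad21 culture replicate 3 is above 0. Only the culture cells had been sorted as negative for the CD48 protein.

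*Cd84*, a self-binding receptor of myeloid cells, platelets, and lymphocytes, rose in culture by 1.32-fold. It was at 56.1, 64.1, and 55.1 CPM in shLuci and at 70.0, 74.8, and 84.8 CPM in shRad21 libraries, with no overlap between both groups. The log2 fold change was 0.40 (SE 0.0986, adjusted p = 0.0211), and the call was lost without shLuci culture replicate 1 (adjusted p = 0.0589), shRad21 culture replicate 2 (0.0662), or shRad21 culture replicate 3 (0.0975). In vivo, *Cd84* was at 82.4, 83.7, and 84.5 CPM in shLuci and at 87.3, 97.9, and 95.7 CPM in shRad21 libraries. These groups did not overlap either, but the log2 fold change of 0.18 (SE 0.0689, adjusted p = 0.137) did not pass the test.

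*Ly9*, a self-binding receptor of lymphocytes, overlapped between shLuci and shRad21 cells in both experiments. In culture, it was at 18.9, 18.2, and 17.0 CPM in shLuci and at 25.4, 19.0, and 15.7 CPM in shRad21 libraries (log2 fold change 0.16, SE 0.162, adjusted p = 0.601). In vivo, it was at 52.7, 54.4, and 53.8 CPM in shLuci and at 47.8, 52.7, and 58.7 CPM in shRad21 libraries, and its log2 fold change of 0.000355 had an SE of 0.0873 (adjusted p = 0.998). The in vivo controls varied least for this gene and for *Cd84*, with coefficients of variation of 1.57% and 1.27%.

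*Slamf7*, a receptor of plasma cells, natural killer cells, and macrophages, was the member with the fewest reads. Its counts in culture were 15, 11, and 24 in shLuci and 19, 8, and 8 in shRad21 libraries. In vivo they were 56, 97, and 131 in shLuci and 60, 31, and 30 in shRad21 libraries. The shRad21 replicates 2 and 3 in vivo were below all controls, whereas replicate 1 was above the lowest of them. The log2 fold change was -0.88 in culture (SE 0.427, adjusted p = 0.215) and -1.23 in vivo (SE 0.377, adjusted p = 0.0684). In vivo, *Slamf7* fell past the threshold without shLuci in vivo replicate 1 (adjusted p = 0.0230) or shRad21 in vivo replicate 1 (0.0431), and with DESeq2 (adjusted p = 0.01996). Of the 5 members, 2 were thus called in culture and 1 in vivo, each of them higher, where 14.2% and 11.0% of all genes tested were called in either direction. Their median log2 fold change was 0.16 in culture and 0.000355 in vivo, against -0.00391 and -0.00192 for all genes tested.

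**Figure D4:**
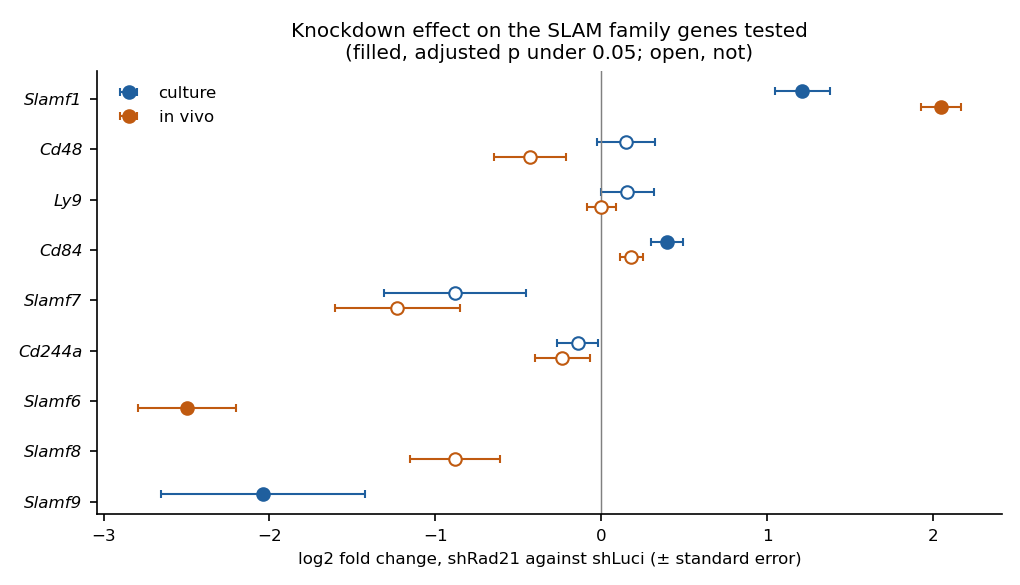
Log2 fold change of shRad21 against shLuci with its standard error for the SLAM family genes that could be tested, in culture and in vivo; filled points have an adjusted p under 0.05. *Slamf1* is called higher in both experiments, *Cd84* higher and *Slamf9* lower in culture, and *Slamf6* lower in vivo.

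The other family genes counted were *Cd244a* (the CD48 receptor), *Slamf6* (a receptor of B, T, and natural killer cells), *Slamf8*, and *Slamf9* (both found mainly on myeloid cells). *Slamf6* fell in vivo, from counts of 143, 148, and 163 in shLuci to 38, 16, and 26 in shRad21 libraries. Its log2 fold change was -2.50 (SE 0.296, adjusted p = 7.28e-04) and it was called under each of 14 alternatives. In culture, it had 0 counts in 5 libraries and 1 count in the other. *Slamf8* was at 3.56, 3.23, and 4.82 CPM in shLuci and at 1.92, 1.62, and 2.68 CPM in shRad21 libraries in vivo, with no overlap, but its log2 fold change of -0.88 (SE 0.272, adjusted p = 0.0692) did not pass the test.

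*Slamf9* fell in culture, where its counts were 11, 40, and 19 in shLuci and 1, 4, and 17 in shRad21 libraries (log2 fold change -2.04, SE 0.614, adjusted p = 0.0487). This call was lost upon omission of any of 4 of the 6 culture libraries, with an adjusted p of 0.0538 without shLuci culture replicate 1, 0.238 without shLuci culture replicate 2, 0.115 without shRad21 culture replicate 1, and 0.146 without shRad21 culture replicate 2. The log2 fold change was -1.46 without shLuci culture replicate 2 and -3.37 without shRad21 culture replicate 3. The call was also lost in a single model of all 12 libraries (adjusted p = 0.0611). *Cd244a* had log2 fold changes of -0.14 in culture (SE 0.123, adjusted p = 0.523) and -0.23 in vivo (SE 0.164, adjusted p = 0.442).

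Markers of mature cells that carry these receptors moved as well. In vivo, the summed level of 8 B-cell genes ranged from 97.7 to 130 CPM in shLuci and from 57.3 to 74.9 CPM in shRad21 libraries. The largest part of this sum was *Cd79b*, with means of 62.6 CPM in shLuci and 53.1 CPM in shRad21 cells. Each gene of the B-cell list had a lower mean in shRad21 cells in vivo. The sum of 9 T- and NK-cell genes ranged from 309 to 414 CPM in shLuci and from 244 to 270 CPM in shRad21 libraries. The latter sum was mostly *Nkg7*, a granule protein gene of cytotoxic cells, with means of 339 CPM in shLuci and 206 CPM in shRad21 cells. In the same list, *Klrb1c*, which encodes NK1.1, had a mean of 4.11 CPM in shLuci and 44.7 CPM in shRad21 cells, and the granzyme gene *Gzmb* had means of 1.40 and 4.35 CPM. The sum of 9 macrophage and dendritic cell genes ranged from 56.2 to 88.1 CPM in shLuci and from 22.1 to 28.2 CPM in shRad21 libraries in vivo, and from 44.0 to 55.7 and 18.4 to 18.9 CPM in culture. Most of this sum was *Cd68* and *Csf1r* in each group. In vivo, *Cd68* had means of 30.9 CPM in shLuci and 9.58 CPM in shRad21 cells, and *Csf1r* of 23.0 and 9.34 CPM. In contrast, *Cd209a* had a higher mean in shRad21 cells in vivo (0.414 against 0.308 CPM). The sum of 6 plasma cell genes overlapped, with 422 to 1737 and 512 to 1036 CPM in vivo. Most of this sum was *Igkc*, with means of 1019 CPM in shLuci and 578 CPM in shRad21 cells. Each gene of this list had a lower mean in shRad21 cells in vivo. Among them were *Jchain* (114 against 201 CPM), *Sdc1* (5.70 against 25.6 CPM), and *Mzb1* (2.62 against 9.57 CPM). All genes of these 4 lists were detected in both groups in vivo, whereas *Ms4a1*, *Igkc*, *Gzma*, and *C1qa* were at 0 in both culture groups. The part of such cells in the values of *Slamf6*, *Slamf7*, *Slamf8*, and *Cd48* was not tested.

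Most of the members differed between control cells of both experiments. Of 5 members, 4 were lower in shLuci culture than in shLuci in vivo cells (*Cd48*, *Ly9*, *Cd84*, and *Slamf7*), where 37.1% of all genes tested were called lower in culture. Hence such a call alone is common in this comparison. *Cd48* was 7.37-fold lower in culture (35.9 ± 7.54 against 263 ± 35.2 CPM, SD, n = 3), but the culture cells had been selected as negative for its protein. *Ly9* was 2.98-fold lower (18.0 ± 0.924 against 53.6 ± 0.840 CPM, log2 difference -1.57, SE 0.141, adjusted p = 9.83e-08), *Slamf7* was 4.81-fold lower (log2 difference -2.26, SE 0.428, adjusted p = 2.21e-04), and *Cd84* was 1.43-fold lower (log2 difference -0.51, SE 0.0876, adjusted p = 8.55e-05).

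*Slamf1* was at 13.6 ± 2.71 CPM (SD, n = 3) in culture and 11.3 ± 0.684 CPM in vivo, with overlapping libraries. The log2 difference of 0.28 (SE 0.159, adjusted p = 0.120) did not pass the test, but did so without shLuci culture replicate 1 (0.42, adjusted p = 0.0310). Of the other family genes, *Cd244a* (1.63-fold) and *Slamf8* were lower in culture. *Slamf8* had 4, 1, and 3 counts in the culture controls, mostly at or under the floor of 3 counts, against 80, 64, and 109 counts in vivo (adjusted p = 6.15e-07). *Slamf6*, with no count in the culture controls against 7.01 CPM ± 0.578 (SD, n = 3) in vivo, was at least 33.3-fold lower in culture if 3 counts per library are taken as the floor. *Slamf9* was 4.15-fold higher in culture (adjusted p = 0.0138), a call that was lost without shLuci culture replicate 2 (adjusted p = 0.108) or shLuci in vivo replicate 3 (0.0593), and whose log2 difference of 2.05 became 2.77 without shLuci in vivo replicate 2. Summed levels of the 8 B-cell genes were between 27.0 and 27.6 CPM in the culture controls, below those in vivo given above. Nearly all of this sum in the culture controls was *Cd79b*, with a mean of 26.0 CPM. The part of kit, gate, lane, and admixed cells in these differences cannot be told apart.

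The effects of the knockdown were next compared along the locus. The SLAM genes span 1031.4 kb from *Cd244a* to *Slamf8*, and 49 genes were counted in this interval. Of the 40 genes outside the family, 17 were tested per experiment. In culture, *Gm37145* was the 1 gene among them that was called, against 14.2% of all genes called. It had 7.82 CPM in shLuci and 3.96 CPM in shRad21 cells (log2 fold change -0.98, adjusted p = 0.00634). With the replicate number as a block, *Cfap45* (adjusted p = 0.0447) and *Igsf9* (0.0273) were called lower as well. This block called 3186 genes in culture. In vivo, none was called by edgeR or DESeq2, against 11.0% of all genes called by edgeR, and 1 had an unadjusted p below 0.05. With 17 genes tested, these counts are too small to set the locus apart from other genes. Their median log2 fold change was -0.0444 in culture and -0.0239 in vivo. *Cd84*, which begins 72.6 kb from the start of *Slamf1*, and *Cd48*, which begins 85.1 kb before it, flank a gene that rose 4.13-fold in vivo, and neither was called there. Between *Cd244a* and the end of *Slamf6*, the genes outside the family had log2 fold changes between 0.0541 and 0.104 in culture (3 genes) and between -0.52 and 0.76 in vivo (4 genes).

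**Figure D5:**
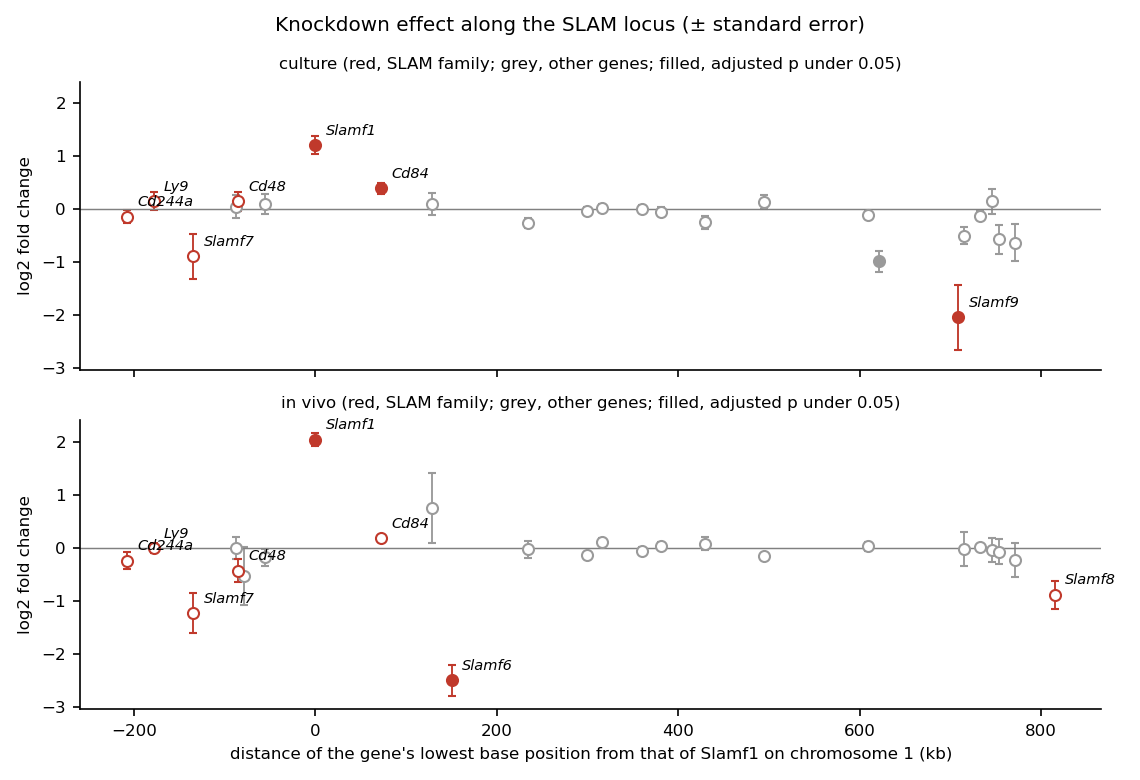
Log2 fold change of shRad21 against shLuci with its standard error for the genes tested in the SLAM locus, by the distance of the lowest base position of each gene from that of *Slamf1* (kb). Family genes are red, other genes grey, and filled points have an adjusted p under 0.05; *Slamf1* stands above its neighbors in both experiments.

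The signaling partners of the receptors were examined as a list of 14 genes. *Sh2d1a*, which encodes the adaptor SAP, had no counts in culture and at most 0.555 CPM in a library in vivo. *Sh2d1b1*, which encodes EAT-2, had between 0.124 and 0.764 CPM in all libraries, and *Sh2d1b2* was at 0 in all libraries but 1 (0.0442 CPM). Of 10 signaling genes tested in culture, 1 was called higher and 2 lower, against 14.2% of all genes called. *Fyn*, the kinase that SAP recruits, rose from 105 ± 8.26 to 154 ± 4.60 CPM (SD, n = 3; log2 fold change 0.55, adjusted p = 0.00117). *Lyn* fell from 155 ± 23.6 to 97.7 ± 13.7 CPM (log2 fold change -0.66, adjusted p = 0.00540), and *Plcg2*, a phospholipase downstream of such kinases, fell from 560 ± 68.0 to 365 ± 11.5 CPM (log2 fold change -0.61, adjusted p = 0.00176).

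Of 11 signaling genes tested in vivo, 3 were called higher and 1 lower, against 11.0% of all genes called. *Fyn* rose from 107 ± 4.16 to 151 ± 7.69 CPM (SD, n = 3; log2 fold change 0.51, adjusted p = 0.00110). *Ptpn11*, the phosphatase SHP-2 (log2 fold change 0.38, adjusted p = 0.0130), and *Plcg1*, a phospholipase (0.31, adjusted p = 0.0302), were higher as well. The call of *Plcg1* was lost upon omission of any in vivo library other than shRad21 in vivo replicate 1 (adjusted p up to 0.0971), and that of *Ptpn11* without shRad21 in vivo replicate 3 (0.0759). *Lck*, the Src-family kinase of T and natural killer cells, fell from 78.3 ± 9.68 to 27.9 ± 1.08 CPM (log2 fold change -1.47, adjusted p = 3.74e-05). Of the T- and NK-cell genes given above, *Nkg7* likewise had a lower mean in shRad21 cells in vivo, whereas *Klrb1c* and *Gzmb* had higher means. The part of such cells in the value of *Lck* was not tested. The median log2 fold change of the list was 0.00178 in culture and -0.0513 in vivo, close to that of all genes tested.

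Other genes used to define stem and progenitor cells were placed beside *Slamf1*. Of 11 such genes, 6 were called higher and 2 lower in culture, and 6 higher and 3 lower in vivo, against 14.2% and 11.0% of all genes called in either direction. *Itga2b*, *Tek*, *Esam*, *Mecom*, and *Fgd5* rose in both experiments, *Hlf* in culture, and *Ly6a*, which encodes Sca-1, in vivo. *Esam*, an adhesion molecule of stem cells, rose with a log2 fold change of 1.33 (adjusted p = 3.18e-05) in culture and of 1.43 (adjusted p = 3.86e-06) in vivo. *Kit* and *Flt3*, a receptor of lymphoid-primed progenitors, fell in both experiments, *Flt3* with a log2 fold change of -1.12 (adjusted p = 0.00168) in culture and of -1.61 (adjusted p = 2.48e-05) in vivo, and *Cd34* fell in vivo. In vivo, the call of *Mecom* (adjusted p = 0.0402) was lost upon omission of any library other than shLuci in vivo replicate 2 (up to 0.116), and that of *Cd34* (0.0316) upon omission of any library other than shLuci in vivo replicate 3 or shRad21 in vivo replicate 2 (up to 0.131). In culture, *Hlf* (adjusted p = 0.0616) and *Fgd5* (0.0538) were not called without shLuci culture replicate 2. *Ly6a* in culture (log2 fold change -0.62) was not called (adjusted p = 0.117), but was with the replicate number as a block (adjusted p = 4.64e-04). *Procr* in culture was not called either (adjusted p = 0.0579), but was under 5 of 14 alternatives, among them the block (0.00351). *Ly6a* in culture was called under 3 of 14. In vivo, neither *Procr* (log2 fold change -0.0717, adjusted p = 0.874) nor *Hlf* (0.00843, adjusted p = 0.979) was called by edgeR. The median log2 fold change of the list was 0.50 in culture and 0.43 in vivo.

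Finally, the genes with the pattern most like that of each member were sought by the distance between their mean log2 CPM in the 4 groups, each centered on its own average, among 12709 genes. The nearest genes to *Slamf1* were *Gm11346* (distance 0.240 on the log2 scale), *Arpin* (0.311), and *Reep2* (0.327). Those to *Cd48* were *Bpifc* (0.218), *Prss57* (0.233), and *Pld6* (0.237). *Ly9* was nearest to *Prpsap1* (0.0363), *Arrdc1* (0.0440), and *Akr7a5* (0.0474), and *Cd84* to *Etfrf1* (0.0192), *Letm2* (0.0292), and *Acap3* (0.0380). The nearest genes to *Slamf7* were the class II gene *H2-Ab1* (0.105), *Ms4a6b* (0.136), and *Paqr5* (0.204). No member was among the nearest genes of another. With 4 groups, such likeness is easily reached and is given as a description.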

How the data were processed

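RNA-seq counts of 12 libraries were analyzed. The authors depleted reads of rRNA (SortMeRNA), trimmed them (Prinseq), mapped them to GRCm38 with TopHat2 2.0.11, and counted them on genes with HTSeq 0.6.1 (versions from the submitters' processing notes). The deposited values are raw counts, whole numbers without normalization. Of 46078 genes, 45229 matched the GENCODE M21 annotation of GRCm38, and the others held 0.105% of counts.

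Counts were scaled with TMM in edgeR 4.0.16 (R 4.3.3), whose filterByExpr removed genes with low counts (minimum 10, scaled to library size, and 15 in total). The two-sided quasi-likelihood test of edgeR was used, with Benjamini-Hochberg adjustment over all genes tested and a threshold of 0.05, within each experiment for the knockdown and in a model of all 12 libraries for the control cells and the interaction. Fold changes come from these fits, whereas printed CPM were scaled over all 12 libraries. The count ratio used a pseudocount of 0.5. Levels used the union of annotated exons. Python 3.11.15, pandas 2.3.3, SciPy 1.17.1, and matplotlib 3.10.9 were used for summaries and figures.

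The replicate numbers in the labels were checked by the correlation of deviations from group means. Same-numbered shLuci and shRad21 libraries correlated with r between 0.133 and 0.162 in culture, against -0.172 to 0.0169 for differently numbered ones. In vivo, r was between 0.0429 and 0.0611, against -0.0699 to 0.0138. Same-numbered libraries thus had the highest values in both experiments, but with smaller r in vivo. The numbers were taken to pair the libraries in culture only, and pairing in vivo remains possible. The main fits used no pairing in either experiment. Alternatives were DESeq2 1.42.0, other scalings, other filters, the replicate block, other sets of libraries in the fit, TPM, transcript length, no pseudocount, and the omission of each library. The fits were tested on simulated data with known changes, where the share of knockdown calls on unchanged genes was somewhat above the threshold, so calls near it are less certain.

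The genes named were the 5 members, the other family genes, *Rad21*, the adaptor genes, members of the signaling, locus, and stem cell lists past the threshold in a knockdown comparison, and the 3 nearest genes by pattern. *Procr* and *Ly6a* in culture were named for their block value, after it had been seen, as were single genes of the cell type marker lists. The stem cell list was used without 1 further gene, which is not reported here. The members and lists were chosen with earlier results of these data known.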

Additional observations from a re-analysis of the deposited data

Results flagged for a closer look

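The knockdown effect on *Slamf1* passed the threshold for a difference between the experiments in edgeR's test of the interaction. The difference, culture minus in vivo, was -0.83 on the log2 scale (adjusted p = 0.0414), with a higher level in 3 of 3 shRad21 libraries in each experiment and the larger effect in vivo. This call was lost upon omission of any of 9 of the 12 libraries, with adjusted p-values up to 0.124 without shLuci culture replicate 2. Library kit, sorting gate, and lane changed together with the setting, so these cannot be told apart.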

How the results depend on the processing

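The rise of *Slamf1* in culture and in vivo was called under all alternatives, as was the lower level of *Cd48*, *Ly9*, *Cd84*, and *Slamf7* in control cells in culture. Of 332 values for the 5 members under the alternatives, 299 kept their direction and their side of the threshold. The cause of the following changes was not tested. Without a filter on low counts, 2829 genes were called in vivo and 1409 for the interaction, and *Cd48* (-0.41 in vivo, adjusted p = 1.01e-05; interaction 0.57) and *Slamf7* (-1.21 in vivo) were called. *Slamf7* in vivo was also called with DESeq2 (-1.23) and with at least 10 counts in every library (-1.23). DESeq2 called 1294 genes for the interaction. *Ly9* in vivo, at a log2 fold change near 0, changed sign with DESeq2 (-0.000184), DESeq2 size factors (-0.000189), the replicate block (-0.00422), the filter of 10 counts in every library (-0.00172), and a single model of 12 libraries (-0.0155).

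Upon omission of single libraries, calls ranged from 1352 to 2817 genes in culture (2213 with all libraries), 951 to 1562 in vivo (1749), and 492 to 845 for the interaction (796). Log2 fold changes in culture ranged from -0.0530 to 0.32 for *Cd48*, -0.0394 to 0.32 for *Ly9*, and 0.32 to 0.47 for *Cd84*. In vivo they ranged from -0.77 to -0.23 for *Cd48*, -0.0748 to 0.0769 for *Ly9*, and -1.62 to -0.99 for *Slamf7*. The control difference of *Slamf1* ranged from 0.14 to 0.42. The interaction ranged from -0.96 to -0.67 for *Slamf1*, -0.0368 to 0.32 for *Ly9*, -0.16 to 0.75 for *Slamf7*, -0.11 to 0.25 for *Cd244a*, and -1.51 to 0.13 for *Slamf8*. With the replicate block in culture, *Ly6a*, *Procr*, *Cfap45* (adjusted p = 0.0447), and *Igsf9* (adjusted p = 0.0273) gained a call, and no other named gene changed its call for the knockdown in culture. The number of genes called with the block was 3186 in culture and 1678 in vivo. In vivo, the numbers were not taken to pair the libraries. No call of a member changed with the block. The TPM, transcript length, and pseudocount alternatives left the order of levels and the count ratio unchanged. *Slamf7*, *Slamf8*, and *Slamf9* had few counts, and the part of depth in their calls was not tested.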
